A study of Homo sapiens with 6 samples.

Results

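The nuclear receptor genes, SRARP and the receptor coregulators were read from poly(A) RNA sequencing of SW480, an established line from a human colon adenocarcinoma. The TIPE group (3 libraries) carried a lentivirus expressing TIPE, the common name of TNFAIP8, and the vector group (3 libraries) carried the empty lentivirus. All cells of both groups had been kept in puromycin at 2 µg/ml for at least 2 weeks, in medium with fetal bovine serum. The labels name no added receptor ligand, and they do not say whether a group was a clone or a mixed population, or whether its libraries came from separate infections or cultures. The p-values therefore rest on how far these libraries lie apart, a spread that could be technical. The members were the 37 genes of a list matched by gene symbol, each to 1 of the 60605 genes of the deposited table: 31 nuclear receptors, 5 coregulators and SRARP.

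Nuclear receptors are transcription factors that bind short DNA half-sites through a zinc finger domain, and many are switched by small lipophilic ligands such as retinoic acid, thyroid hormone, vitamin D, oxysterols or steroids. Many of them pair with a retinoid X receptor. Without an activating ligand some hold corepressors such as NCOR1, and with one they recruit coactivators of the NCOA family. In the intestinal epithelium they are known for roles in differentiation, bile acid and lipid handling, calcium uptake and the circadian clock.

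Total counts were 16395205, 20345330 and 13957349 in TIPE replicates 1, 2 and 3, and 15300874, 19496484 and 14472231 in vector replicates 1, 2 and 3. TNFAIP8 had 87318, 98811 and 62902 counts in TIPE libraries, against 175, 158 and 104 counts in vector libraries. TIPE replicate 3 stood somewhat apart from its own group, with a chi-square per gene of 7.76 and 8.19 against the other TIPE libraries, where the remaining pairs within a group gave 2.33 to 3.82. Of 13 colon epithelial markers, 9 were tested, of which 5 rose (KRT8, KRT18, KRT19, CDX2 and ASCL2) and 3 fell (CDH1, EPCAM and LGR5). GPA33, under the filter, had 1, 4 and 5 counts in TIPE libraries and 13, 7 and 13 counts in vector libraries. GPA33 fell in the edgeR fit without the filter (log2 fold change -1.68, adjusted p = 0.0313). The keratin KRT18 was at 747 ± 14.7 FPKM in TIPE libraries and 478 ± 26 FPKM in vector libraries. CDH1, the epithelial cadherin, was at 13.7 ± 0.878 FPKM in TIPE libraries and 35.9 ± 1.32 FPKM in vector libraries (log2 fold change -1.32, edgeR adjusted p = 4.14e-12). KRT20 had 0 to 3 counts per library and CDX1 had none. Summed over 8 leukocyte markers, the level was 0.57 to 0.95 FPKM in TIPE libraries and 0.69 to 0.78 FPKM in vector libraries, with PTPRC and CD3E at 0 counts throughout. The 8 fibroblast markers summed to 2.37 to 3.34 FPKM in TIPE libraries and 1.78 to 2.84 FPKM in vector libraries, with COL1A2, COL3A1 and FAP at 0 counts. LUM made up most of that sum, at 2.22 ± 0.467 FPKM in TIPE libraries and 1.94 ± 0.443 FPKM in vector libraries (adjusted p = 0.314), and PDGFRB, under the filter at 0.537 ± 0.0252 FPKM in TIPE libraries and 0.24 ± 0.0889 FPKM in vector libraries, rose (log2 fold change 1.26, adjusted p = 3.16e-07 without the filter). The part of these marker differences in the results below was not tested. The 6 endothelial markers summed to 0.25 to 0.35 FPKM in TIPE libraries and 0.14 to 0.21 FPKM in vector libraries, with KDR at 0 counts.

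FPKM is the count scaled to the exonic length of the gene and to the total of the library. Of the 37 members, 25 had a mean of at least 0.5 FPKM over the 6 libraries and were tested with all other such genes. Each of these 25 also reached 0.5 FPKM in both groups. Another 8 lay under that level and 4 had no counts. Among the 25, 8 rose and 10 fell in TIPE libraries (quasi-likelihood test of edgeR, adjusted by Benjamini-Hochberg over all 14205 genes tested, threshold 0.05). The shares over all genes tested were 20.9% higher and 20.7% lower, or 41.5% in either direction, where 72.0% of the 25 members passed. With library totals alone in place of TMM factors, the counts over all genes were 2137 higher and 3880 lower, against 2967 and 2935, and those over the members were 7 and 12. The 25 members had a median log2 fold change of -0.10, and all genes tested one of -0.00048. Scaled to library totals alone, the groups did not overlap in 20 of the 25 (8 higher and 12 lower in TIPE libraries), against 50.9% of all genes tested. On that scale the median log2 fold change of all genes tested was -0.072. In bulk RNA, fewer cells expressing a gene and less of its RNA per cell cannot be told apart.

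By role, all 5 coregulators fell, SRARP rose, and the 19 tested receptors went both ways, 7 higher and 5 lower. Summed over the 31 receptors, the level was 138.34, 134.11 and 139.85 FPKM in TIPE libraries, against 133.90, 131.70 and 135.22 FPKM in vector libraries. Those ranges overlap. Summed over the 5 coregulators, it was 28.46, 25.83 and 25.55 FPKM in TIPE libraries, against 41.28, 42.38 and 39.95 FPKM in vector libraries, with no overlap.

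**Figure D1:**
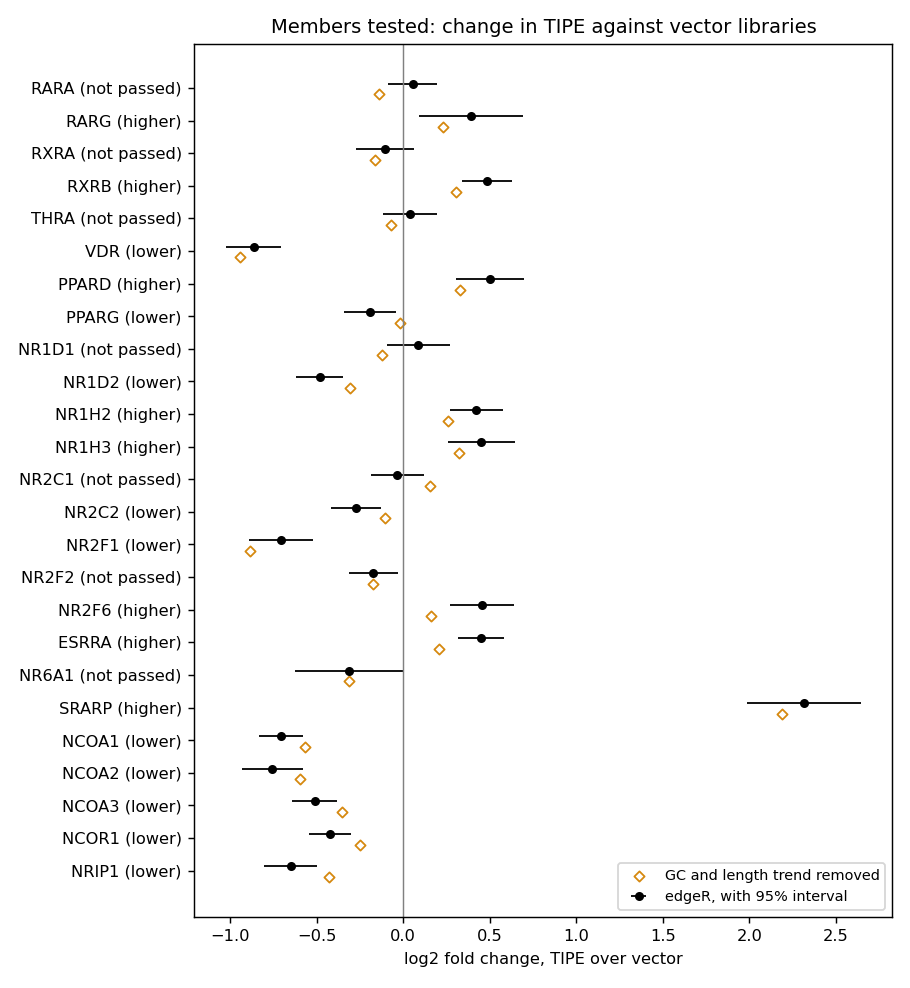
Log2 fold change of TIPE over vector for the 25 tested members, in the order receptors, SRARP, coregulators. Black points are the edgeR estimates with 95% intervals, open diamonds the estimates with each library's GC and length trend removed, and the label gives the call. SRARP lies alone at 2.32, and the 5 coregulators lie between -0.75 and -0.42.

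Fold changes of all genes followed the GC content of the transcript in these libraries. The median log2 fold change was -0.22 over genes under 40% GC and 0.20 over genes at 60% or more. The members lay along the same trend in part. Of the 10 tested members under 50% GC, none rose and 8 fell, where 11.2% of all genes under 50% GC rose and 31.3% fell. Of the 15 members at 50% or more, 8 rose and 2 fell (VDR and NR2F1), where 32.8% of all such genes rose and 7.95% fell. Once the trends of fold change on GC and exonic length were taken out of each library, 6 members rose and 8 fell, and the shares over all genes were 17.5% higher and 16.8% lower (34.3% in either direction). RARG, NR2F6, PPARG and NR2C2 lost their calls in that fit. The value from that fit is given below as the GC-adjusted log2 fold change.

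**Figure D2:**
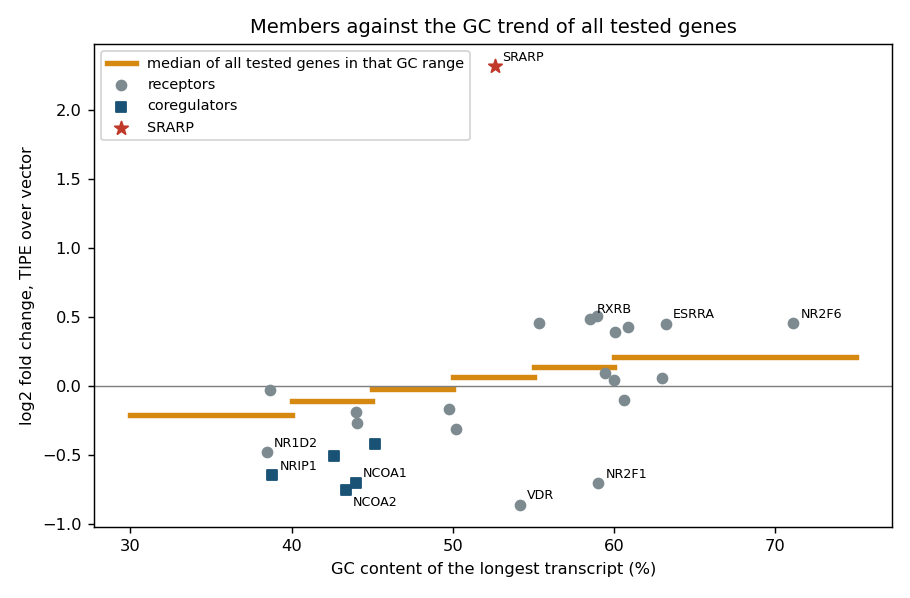
Log2 fold change of TIPE over vector (y axis) against the GC content of the longest transcript in percent (x axis) for the 25 tested members. Orange lines are the medians of all tested genes in each GC range. The coregulators lie below the lines of their GC ranges, VDR and NR2F1 lie far below theirs, and SRARP lies above.

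SRARP encodes the steroid receptor associated and regulated protein, a small protein described in breast cancer cells. It was the member with the largest change. SRARP (ENSG00000183888, chromosome 1, 16004236 to 16008807, hg38) was at 4.44, 4.29 and 4.27 FPKM in TIPE libraries, against 0.73, 0.79 and 1.25 FPKM in vector libraries. The lowest TIPE library lay more than 3 FPKM above the highest vector library. Its counts were 221, 265 and 181 in TIPE libraries and 34, 47 and 55 in vector libraries. SRARP rose 4.98-fold (log2 fold change 2.32, standard error 0.16, edgeR adjusted p = 9.17e-10), and the GC-adjusted log2 fold change was 2.19. On the log2(FPKM + 1) scale of limma the difference was 1.48, since that scale understates the change of genes with low values. Its only overlapping neighbour, an antisense transcript, had no counts in any library.

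The steroid receptors themselves were scarce in both groups. ESR1, the estrogen receptor, had 0, 3 and 1 counts in TIPE libraries and 0, 1 and 0 counts in vector libraries. PGR, the progesterone receptor, had no counts in any library, which allows up to 3 counts or 0.147 to 0.215 CPM (counting error only). NR3C1, the glucocorticoid receptor, had 17, 32 and 24 counts in TIPE libraries and 9, 26 and 22 counts in vector libraries, or 0.06 to 0.19 FPKM over all libraries. NR3C2, the mineralocorticoid receptor, had 2, 6 and 1 counts in TIPE libraries and 3, 4 and 5 counts in vector libraries. Among the 3 steroid receptors with counts, the groups overlapped and none passed in the fit without an expression filter, where 20.1% of all genes passed (edgeR adjusted p = 0.487 for NR3C1, 0.590 for ESR1 and 0.795 for NR3C2). Differences of these genes were not detectable at this depth.

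The promoter of SRARP is shown beside those of coregulators that moved the other way, since SRARP rose most and all 5 coregulators fell. Of the 37 members, 34 matched a RefSeq promoter (GRCh38.p14), all but VDR, NCOA2 and NR2F6, and the RefSeq start equalled the deposited gene start for 12 of them, including the 4 below. Each sequence is the 250 bases before the start, 5′ to 3′ on the gene's strand. Capitals mark matches to the nuclear receptor half-site AGGTCA, the TATA box TATAAA, the GC box GGGCGG or the E-box CACGTG on either strand. No match to one of these motifs overlapped a match to another in these windows.
SRARP, chr1:16003986-16004235, + strand: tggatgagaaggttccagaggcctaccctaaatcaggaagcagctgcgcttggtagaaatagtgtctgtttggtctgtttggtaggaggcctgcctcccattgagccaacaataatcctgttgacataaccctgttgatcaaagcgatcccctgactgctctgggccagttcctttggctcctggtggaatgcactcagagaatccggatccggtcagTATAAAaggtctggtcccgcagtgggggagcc
NCOA1, chr2:24491004-24491253, + strand: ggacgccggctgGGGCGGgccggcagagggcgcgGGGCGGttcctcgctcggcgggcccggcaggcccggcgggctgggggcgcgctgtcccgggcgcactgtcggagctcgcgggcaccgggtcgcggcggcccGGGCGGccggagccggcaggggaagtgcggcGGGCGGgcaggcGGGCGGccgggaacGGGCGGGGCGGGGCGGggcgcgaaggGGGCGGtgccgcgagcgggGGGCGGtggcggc
NCOA3, chr20:47501637-47501886, + strand: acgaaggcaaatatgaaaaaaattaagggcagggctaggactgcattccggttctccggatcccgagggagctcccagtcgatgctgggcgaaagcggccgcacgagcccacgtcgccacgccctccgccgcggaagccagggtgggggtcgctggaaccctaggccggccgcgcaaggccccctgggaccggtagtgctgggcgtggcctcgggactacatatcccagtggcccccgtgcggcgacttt
NRIP1, chr21:15065937-15066186, - strand: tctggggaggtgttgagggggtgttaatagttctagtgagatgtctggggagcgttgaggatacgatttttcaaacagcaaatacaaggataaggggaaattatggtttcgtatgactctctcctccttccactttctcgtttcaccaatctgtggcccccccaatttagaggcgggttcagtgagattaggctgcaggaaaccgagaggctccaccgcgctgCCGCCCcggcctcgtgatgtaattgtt

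The SRARP window holds a TATA box that begins 32 bases before the start, a motif found in 11.1% of 27305 RefSeq promoters and in 2 of the 34 member promoters, the other being NR5A2. Its GC content was 52.8%, with 5 CpG dinucleotides. The NCOA1 window, at 87.2% GC and 46 CpG, is a run of GC boxes, some of which share a base with the next. NRIP1 has a GC box on the opposite strand 27 bases before its start, at 50.8% GC and 11 CpG, and NCOA3 has none of the 4 motifs at 66.4% GC and 25 CpG. The GC box occurs in 42.3% of all promoters and in 18 of the 34 member promoters. The half-site AGGTCA occurs in 12.1% of all promoters and in 6 member promoters, those of RARA, RXRG, PPARG, NR1H3, NR1H4 and NR5A2. None of the 4 windows printed holds it. The E-box occurs in 6.49% of all promoters and in the member promoters of NR2C1 and NR2F2.

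All 5 coregulators fell in TIPE libraries, each with its highest TIPE library below its lowest vector library. NCOA1, NCOA2 and NCOA3 are the steroid receptor coactivators, scaffolds that bring histone acetyltransferases to a ligand-bound receptor. NCOA1 (ENSG00000084676, chromosome 2, 24491254 to 24770702) was at 5.73, 5.29 and 5.18 FPKM in TIPE libraries, against 9.34, 9.41 and 8.95 FPKM in vector libraries, and was 1.63-fold lower (log2 fold change -0.70, standard error 0.06, edgeR adjusted p = 2.85e-08). NCOA2 (chromosome 8, 70109782 to 70403808) was at 2.68, 2.55 and 2.13 FPKM in TIPE libraries, against 4.36, 4.66 and 4.07 FPKM in vector libraries, and was 1.69-fold lower (log2 fold change -0.75, standard error 0.08, adjusted p = 6.51e-07). NCOA3 (chromosome 20, 47501887 to 47656877), also known as an amplified gene in breast cancer, was at 6.14, 5.66 and 5.63 FPKM in TIPE libraries, against 8.62, 9.11 and 8.34 FPKM in vector libraries, and was 1.43-fold lower (log2 fold change -0.51, standard error 0.06, adjusted p = 1.96e-06). Summed, the 3 coactivators were at 13.7 ± 0.817 FPKM in TIPE libraries and 22.3 ± 0.910 FPKM in vector libraries (SD, n = 3 each). NCOA3 made up 42.5% of that sum in TIPE libraries and 39.0% in vector libraries.

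The corepressors among the members fell as well. NCOR1 (chromosome 17, 16029157 to 16218185), the corepressor that holds histone deacetylase HDAC3 at unliganded receptors, was at 10.74, 9.50 and 9.64 FPKM in TIPE libraries, against 14.04, 14.06 and 13.91 FPKM in vector libraries. It was 1.34-fold lower (log2 fold change -0.42, standard error 0.06, edgeR adjusted p = 7.22e-06). NRIP1 (chromosome 21, 14961235 to 15065936), also called RIP140, is a corepressor of liganded receptors that is known in the intestine for restraining WNT signalling. NRIP1 was at 3.17, 2.83 and 2.97 FPKM in TIPE libraries, against 4.92, 5.14 and 4.68 FPKM in vector libraries, and was 1.57-fold lower (log2 fold change -0.65, standard error 0.07, adjusted p = 7.43e-07). The GC-adjusted log2 fold changes were -0.57, -0.59, -0.36, -0.25 and -0.43 for NCOA1, NCOA2, NCOA3, NCOR1 and NRIP1, and all 5 passed in that fit. NCOA3 shares 530 bases of gene span with SULF2 on the opposite strand and NCOR1 shares 15859 with TTC19. The strand setting of the counting is unknown here, so reads in such stretches may not be told apart. SULF2 and TTC19 had log2 fold changes of -0.07 each and did not pass (adjusted p = 0.327 and 0.323).

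**Figure D3:**
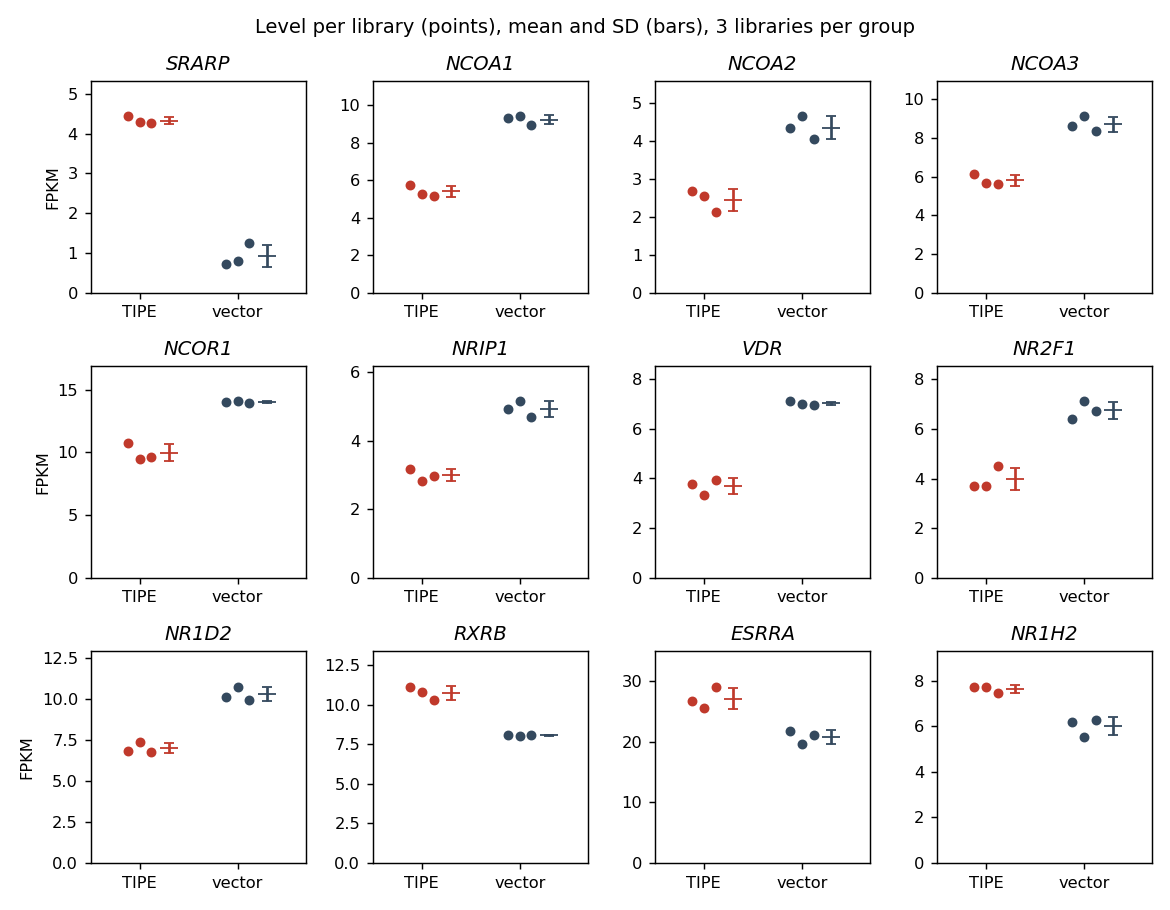
Level in FPKM (y axis, from 0) of 12 members in each library, with TIPE libraries in red on the left and vector libraries in dark blue on the right of each panel. Bars give the mean and SD of 3 libraries. The 12 were picked from the members that passed, and their groups do not overlap, as in 50.9% of all genes tested. SRARP lies between 4.27 and 4.44 FPKM in TIPE libraries and between 0.73 and 1.25 FPKM in vector libraries.

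VDR, the vitamin D receptor, fell more than any other receptor tested. VDR (ENSG00000111424, chromosome 12, 47841537 to 47943048) was at 3.78, 3.34 and 3.94 FPKM in TIPE libraries, against 7.10, 7.01 and 6.95 FPKM in vector libraries. The groups were far apart, with a 1.82-fold lower level in TIPE libraries (log2 fold change -0.86, standard error 0.08, edgeR adjusted p = 3.56e-08). The GC-adjusted value was -0.94. THRA, a thyroid hormone receptor, was at 5.31, 5.05 and 4.5 FPKM in TIPE libraries and 4.91, 5.13 and 5.18 FPKM in vector libraries, which overlap (log2 fold change 0.04, 95% interval -0.12 to 0.20, adjusted p = 0.698). THRB, the other thyroid hormone receptor, had 2, 0 and 0 counts in TIPE libraries and 4, 2 and 3 counts in vector libraries (adjusted p = 0.349 without the filter).

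NR2F1 and NR2F2, the COUP transcription factors, are orphan receptors known mainly as repressors, and NR2F6 is their close relative. NR2F1 (chromosome 5, 93583222 to 93594611) was at 3.71, 3.72 and 4.49 FPKM in TIPE libraries, against 6.41, 7.11 and 6.73 FPKM in vector libraries, and was 1.63-fold lower (log2 fold change -0.71, standard error 0.09, edgeR adjusted p = 2.59e-06, GC-adjusted -0.88). NR2F6 (chromosome 19, 17231883 to 17245919) was at 13.53, 13.44 and 17.30 FPKM in TIPE libraries, against 11.57, 10.53 and 11.74 FPKM in vector libraries, and rose 1.37-fold (adjusted p = 0.000337). Its GC-adjusted log2 fold change of 0.16 did not pass (adjusted p = 0.131), and TIPE replicate 3 was the highest of the 6 libraries. NR2F2 was at 5.41, 5.28 and 5.96 FPKM in TIPE libraries and 6.59, 6.65 and 6.39 FPKM in vector libraries. Its groups did not overlap, but it missed the threshold (log2 fold change -0.17, adjusted p = 0.0512) and passed without TIPE replicate 3 (-0.22, adjusted p = 0.00865). Of the summed NR2F level, NR2F6 held 60.7% ± 1.46 in TIPE libraries and 45.9% ± 2.20 in vector libraries, and NR2F1 held 16.4% ± 0.199 and 27.5% ± 1.63 (SD, n = 3 each). The sum itself was 24.3 ± 3.01 FPKM in TIPE libraries and 24.6 ± 0.285 FPKM in vector libraries.

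The retinoid X receptors are the shared partners of many other members. RXRB (chromosome 6, 33193588 to 33200665) was at 11.14, 10.78 and 10.30 FPKM in TIPE libraries, against 8.08, 8.02 and 8.10 FPKM in vector libraries, and rose 1.40-fold (log2 fold change 0.49, standard error 0.07, edgeR adjusted p = 1.21e-05, GC-adjusted 0.30). RXRA was at 2.61, 2.44 and 2.16 FPKM in TIPE libraries and 2.80, 2.81 and 2.53 FPKM in vector libraries, and did not pass (log2 fold change -0.10, 95% interval -0.27 to 0.06, adjusted p = 0.328). RXRG had 1 count in TIPE replicate 3 and none in any other library. RXRB held 81.7% ± 0.733 of the summed RXR level in TIPE libraries and 74.8% ± 1.18 in vector libraries. RXRB shares 221 bases with SLC39A7 on the opposite strand, a gene at a mean of 49.5 FPKM that did not pass (log2 fold change 0.08, adjusted p = 0.269).

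Among the retinoic acid receptors, RARA was the main form. RARA was at 8.72, 8.41 and 8.01 FPKM in TIPE libraries and 8.38, 8.56 and 8.48 FPKM in vector libraries, with overlapping groups and a log2 fold change of 0.06 (95% interval -0.08 to 0.20, edgeR adjusted p = 0.540). RARG was at 1.12, 1.13 and 1.16 FPKM in TIPE libraries, against 0.92, 0.92 and 0.89 FPKM in vector libraries, and rose 1.31-fold (adjusted p = 0.0351). That call was lost without any 1 of the 6 libraries (adjusted p = 0.0540 to 0.0913) and in the GC-adjusted fit (0.23, adjusted p = 0.238). RARB, whose loss of expression is known from several carcinomas, had 5, 4 and 10 counts in TIPE libraries and 2, 5 and 7 counts in vector libraries. RARA held 87.1% ± 1.29 of the summed RAR level in TIPE libraries and 89.5% ± 0.243 in vector libraries.

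The PPARs are fatty acid sensors with different tissue roles. PPARD (chromosome 6, 35342558 to 35428191), which is known in colon cancer as a WNT target, was at 5.87, 4.48 and 5.16 FPKM in TIPE libraries, against 3.94, 3.79 and 3.72 FPKM in vector libraries. It rose 1.42-fold (log2 fold change 0.50, standard error 0.10, edgeR adjusted p = 0.000252, GC-adjusted 0.33). PPARG, a receptor of differentiated colonocytes and fat cells, was at 2.84, 3.18 and 2.97 FPKM in TIPE libraries, against 3.69, 3.45 and 3.66 FPKM in vector libraries. PPARG fell 1.14-fold (log2 fold change -0.19, adjusted p = 0.0390), a call that was lost without TIPE replicate 1, vector replicate 1 or vector replicate 3 (adjusted p = 0.153, 0.110 and 0.0991), in DESeq2 (0.0669) and in the GC-adjusted fit (-0.02, adjusted p = 0.858). PPARA lay just under the filter, at 0.52, 0.51 and 0.44 FPKM in TIPE libraries and 0.47, 0.51 and 0.45 FPKM in vector libraries (adjusted p = 0.637 without the filter). PPARD held 59.5% ± 4.42 of the summed PPAR level in TIPE libraries and 48.4% ± 0.741 in vector libraries.

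**Figure D4:**
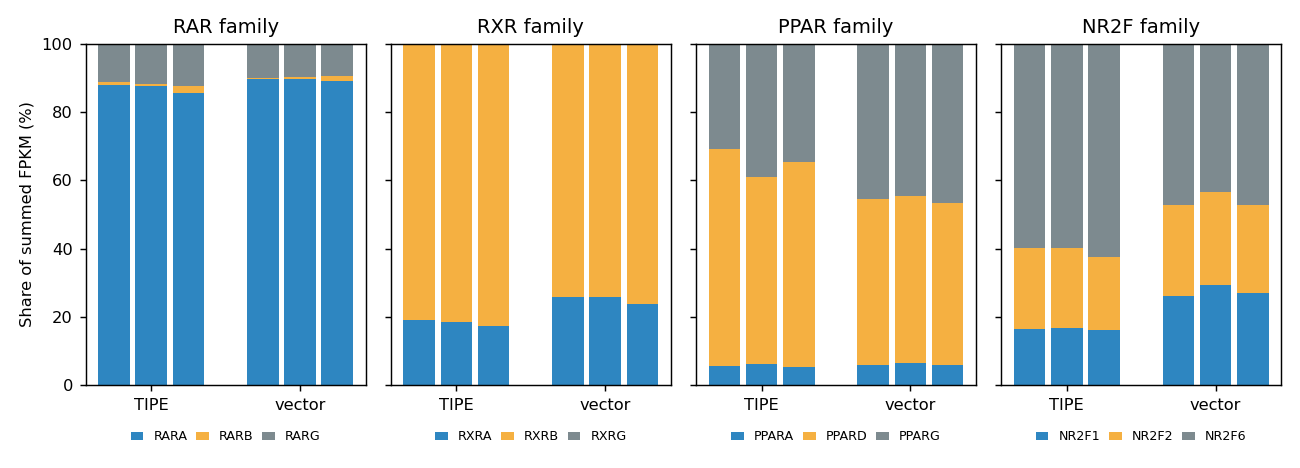
Share of each receptor in the summed FPKM of its family (y axis, percent), with a bar for each library, TIPE replicates 1 to 3 on the left and vector replicates 1 to 3 on the right of each panel. NR2F6, PPARD and RXRB take a larger share in every TIPE library than in any vector library. No GC adjustment was made to the shares. RARA takes a smaller one, 85.6% to 87.9% in TIPE libraries and 89.3% to 89.7% in vector libraries.

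Both liver X receptors, the oxysterol sensors that control cholesterol efflux, rose. NR1H2, the widely expressed form, was at 7.75, 7.74 and 7.45 FPKM in TIPE libraries, against 6.20, 5.54 and 6.30 FPKM in vector libraries (log2 fold change 0.42, standard error 0.07, edgeR adjusted p = 0.000105, GC-adjusted 0.26). NR1H3 was at 5.10, 4.29 and 5.36 FPKM in TIPE libraries, against 3.94, 3.81 and 3.49 FPKM in vector libraries (log2 fold change 0.45, standard error 0.09, adjusted p = 0.000525, GC-adjusted 0.33). Neither gene's groups overlapped. NR1H3 shares 607 bases with ACP2 on the opposite strand, which had a log2 fold change of -0.0072. NR1H4, the bile acid receptor FXR, and NR1I2, the xenobiotic receptor PXR, had no counts in any library.

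The estrogen-related receptor ESRRA, an orphan receptor that drives genes of mitochondrial metabolism, was the most expressed receptor in both groups. ESRRA (chromosome 11, 64305497 to 64316743) was at 26.79, 25.60 and 29.16 FPKM in TIPE libraries, against 21.86, 19.62 and 21.21 FPKM in vector libraries, and rose 1.37-fold (log2 fold change 0.45, standard error 0.06, edgeR adjusted p = 1.11e-05). The GC-adjusted log2 fold change was 0.21, which also passed (adjusted p = 0.00822). ESRRA shares 284 bases with TRMT112 on the opposite strand, a gene at a mean of 141 FPKM that rose with a log2 fold change of 0.15 (adjusted p = 0.0279), so reads in that stretch may not be told apart. The testicular receptors NR2C1 and NR2C2 are orphan repressors. NR2C2 fell 1.21-fold (4.88, 4.36 and 4.19 FPKM in TIPE libraries, against 6.0, 5.79 and 5.24 FPKM in vector libraries, adjusted p = 0.00314), but its GC-adjusted log2 fold change of -0.10 did not pass (adjusted p = 0.179), and it shares 841 bases with the antisense FGD5-AS1, which fell (-0.21, adjusted p = 0.00497). NR2C1 had a log2 fold change of -0.03 (95% interval -0.19 to 0.12, adjusted p = 0.757). NR6A1, the germ cell nuclear factor, was at 0.99, 0.77 and 0.69 FPKM in TIPE libraries and 1.00, 1.02 and 1.21 FPKM in vector libraries (log2 fold change -0.31, adjusted p = 0.0982) and passed without TIPE replicate 1 (-0.46, adjusted p = 0.0234). It shares 40165 bases with the antisense host gene MIR181A2HG, at a mean of 5.11 FPKM (log2 fold change 0.27, adjusted p = 0.272). NR5A2, a receptor of intestinal crypts and liver, had no counts in any library.

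The clock receptors differed from each other. NR1D1 and NR1D2, the REV-ERB repressors, bind the same DNA elements as the RORA activator and close a feedback loop of the circadian clock. NR1D1 was at 16.03, 16.69 and 14.22 FPKM in TIPE libraries and 14.09, 14.86 and 17.68 FPKM in vector libraries, which overlap (log2 fold change 0.09, 95% interval -0.09 to 0.27, edgeR adjusted p = 0.448). NR1D2 (chromosome 3, 23945286 to 23980617) was at 6.84, 7.36 and 6.80 FPKM in TIPE libraries, against 10.13, 10.77 and 9.97 FPKM in vector libraries, and was 1.40-fold lower (log2 fold change -0.48, standard error 0.07, adjusted p = 7.97e-06, GC-adjusted -0.31). RORA (chromosome 15, 60488284 to 61229302) lay under the filter at 0.45, 0.43 and 0.44 FPKM in TIPE libraries, against 0.25, 0.33 and 0.20 FPKM in vector libraries. It rose in the fit without the filter (log2 fold change 0.79, standard error 0.15, adjusted p = 2.53e-06), but not in limma on log2(FPKM + 1) or log2(FPKM + 0.1) (adjusted p = 0.0832 and 0.182). Its gene span shares 142354 bases with the antisense gene RORA-AS1, at a mean of 0.32 FPKM, and reads there may not be told apart. RORA was 1 of 8 members under the filter, and no other of the 8 passed.

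Some members lie close together in the genome. THRA, NR1D1 and RARA lie on chromosome 17, where THRA and NR1D1 overlap by 1075 bases on opposite strands and RARA lies 209 kb from NR1D1. None of these 3 passed, and reads in the overlap of THRA and NR1D1 may not be told apart. Their paralogs THRB, NR1D2 and RARB lie on chromosome 3, with NR1D2 137 kb from THRB and RARB 679 kb from THRB. Of these, NR1D2 alone was above the filter.

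By level, ESRRA, NR1D1 and NR2F6 were the 3 most expressed of the 31 member receptors in both groups. HNF4A, a receptor outside the members, was at 11.3 ± 0.495 FPKM in TIPE libraries and 11.9 ± 0.185 FPKM in vector libraries. In TIPE libraries ESRRA, at 27.2 ± 1.81 FPKM, was followed by NR1D1 at 15.6 ± 1.28, NR2F6 at 14.8 ± 2.20, RXRB at 10.7 ± 0.421, RARA at 8.38 ± 0.356 and NR1H2 at 7.65 ± 0.170 FPKM (SD, n = 3), with the libraries of NR1D1 and NR2F6 overlapping. In vector libraries ESRRA, at 20.9 ± 1.15 FPKM, was followed by NR1D1 at 15.5 ± 1.89, NR2F6 at 11.3 ± 0.655, NR1D2 at 10.3 ± 0.423, RARA at 8.47 ± 0.0902 and RXRB at 8.07 ± 0.0416 FPKM, with NR2F6 and NR1D2 overlapping. VDR stood at rank 15 of 31 in TIPE libraries, where its range overlapped that of NR2F1, and at rank 7 in vector libraries, where its range overlapped that of NR2F1 too.

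The other genes of these pathways were read from 14 lists. Each gene counted once, 146 of them were tested, and 47 rose and 36 fell, with a median log2 fold change of 0.05 (36 and 32 in the GC-adjusted fit). The lists are described by their counts beside the 20.9% higher and 20.7% lower of all genes, and a GC-adjusted count is given where it moved by over 1.5 times. Of 19 other coactivators tested, 2 rose and 8 fell (median -0.14, GC-adjusted 0 higher and 8 lower). The acetyltransferases CREBBP and EP300, which the NCOA proteins recruit, had log2 fold changes of -0.66 and -0.51, and MED1, the Mediator subunit that contacts receptors, had -0.46 (edgeR adjusted p = 2.21e-07, 4.60e-06 and 8.68e-06). Of 13 other corepressors, 3 rose and 4 fell (median -0.00086). LCOR and BCOR fell (-0.84 and -0.28), while the deacetylase HDAC3, the enzyme partner of NCOR1, rose (0.35, adjusted p = 0.000129). Of 5 other nuclear receptors, 2 rose and 2 fell (GC-adjusted 2 and 1). The immediate early receptors NR4A2 and NR4A1 rose (0.79 and 0.88), NR4A1 with a mean under 0.5 FPKM in vector libraries.

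**Figure D5:**
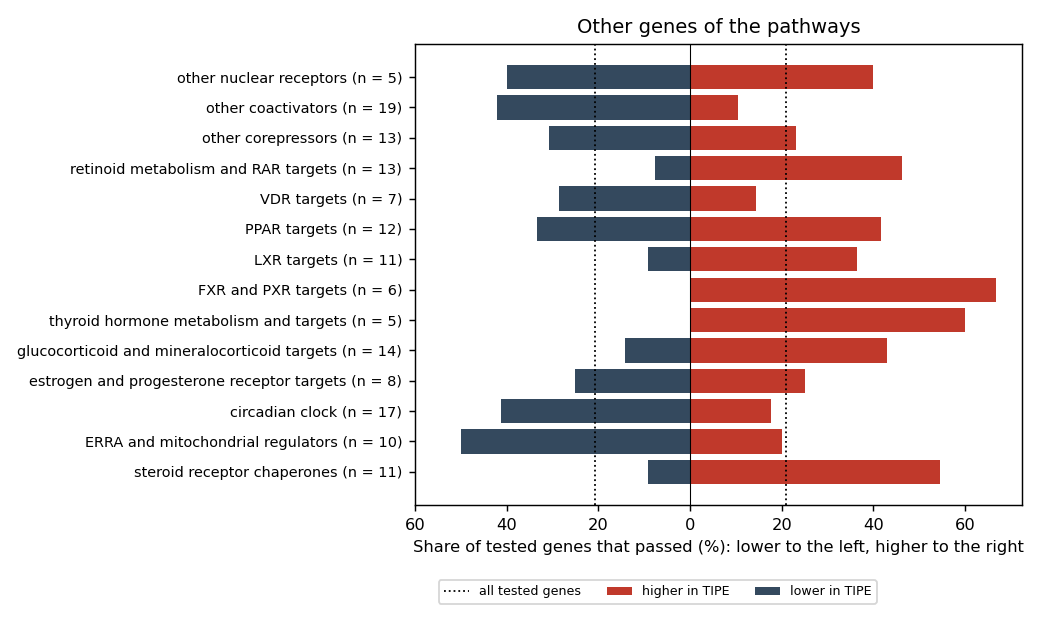
Share of the tested genes of each pathway list that passed in edgeR, lower in TIPE libraries to the left and higher to the right (x axis, percent), with the number tested in parentheses. Dotted lines mark the 20.9% higher and 20.7% lower of all tested genes. Of 19 other coactivators 8 were lower and 2 higher.

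Target lists were mixed. Of 7 VDR targets tested, 1 rose and 2 fell (median -0.02), and in the GC-adjusted fit 1 rose and 4 fell (median -0.19). The calcium channel TRPV6 fell to 1.57 ± 0.232 FPKM in TIPE libraries, against 3.43 ± 0.261 FPKM in vector libraries (log2 fold change -1.05, edgeR adjusted p = 3.44e-08). S100A2 rose (0.40). G0S2 fell (-0.29, edgeR adjusted p = 0.0353), a call kept in 13 of 17 alternative fits. CYP24A1, the vitamin D degrading enzyme and a classical VDR target, averaged 0.127 FPKM in TIPE libraries and 0.150 FPKM in vector libraries. Of 11 LXR targets, 4 rose and 1 fell. The cholesterol exporter ABCG1 rose to 4.14 ± 0.253 FPKM in TIPE libraries, against 1.78 ± 0.136 FPKM in vector libraries (log2 fold change 1.29, adjusted p = 2.22e-09) and the lipid transfer protein PLTP rose (0.48). Of 12 PPAR targets, 5 rose and 4 fell (GC-adjusted 3 and 2). The acyl-CoA synthetases ACSL5 and ACSL1 went opposite ways (1.16 and -0.48), and CPT1A, which brings fatty acids into mitochondria, fell (-0.55).

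Of 13 tested genes of retinoid metabolism and RAR targets, 6 rose and 1 fell (median 0.30), and in the GC-adjusted fit 2 rose and none fell (median 0.25). The retinal reductase DHRS3 had a log2 fold change of 0.65, and RARRES2 had 0.54, which did not pass in the GC-adjusted fit (adjusted p = 0.150). Of 17 clock genes, 3 rose and 7 fell (median -0.09). CLOCK, BHLHE41 and PER2 fell (-0.70, -0.82 and -0.45, edgeR adjusted p = 7.40e-07, 1.29e-05 and 6.54e-05). Of 14 glucocorticoid and mineralocorticoid targets, 6 rose and 2 fell. ERRFI1, the metallothionein MT2A and KLF9 had log2 fold changes of 0.72, 0.90 and 1.15. KLF9 also belongs to the thyroid hormone list, where 3 of 5 rose and none fell, with HR at 0.55 and SLCO4A1 at 0.23 (GC-adjusted 0.022, adjusted p = 0.816).

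Of 6 FXR and PXR targets tested, 4 rose and none fell, with the ileal bile acid binding protein FABP6 at 1.21, FGF19 at 0.33 and the drug exporter ABCB1 at 0.28 on the log2 fold change scale (edgeR adjusted p = 4.54e-07, 6.09e-05 and 0.00110). Of 8 estrogen and progesterone receptor targets, 2 rose and 2 fell, with IGFBP4 at 0.38, MYB at -0.55 and MYBL1 at -1.0, the last with a mean under 0.5 FPKM in TIPE libraries. Of 10 ESRRA partners and mitochondrial genes, 2 rose and 5 fell (median -0.20), and in the GC-adjusted fit 1 rose and 2 fell (median -0.11). Cytochrome c (CYCS), TFAM and IDH3A had log2 fold changes of -0.41, -0.27 and -0.25, that of TFAM not passing in the GC-adjusted fit (-0.11, adjusted p = 0.0798). Of 11 chaperones of steroid receptors, 6 rose and 1 fell, with HSPA8 at 0.46, DNAJB1 at 0.39 and HSP90AB1 at 0.34.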

How the data were processed

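Per the file headers, the authors deposited 1 table of 60605 genes that holds, for each of the 6 libraries, a count column and an FPKM column, with exonic length and position. The deposited counts were whole, and their totals differed between libraries. Each FPKM value matched the count scaled to length and library total within 0.005. Reads were aligned to hg38 by HISAT2 2.0.1, per the submitters' processing notes. No source used here gives the counting tool or its strand setting. Groups came from the treatment label.

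Genes with a mean of at least 0.5 FPKM were fitted with edgeR 4.0.16 (quasi-likelihood, TMM factors of 0.962 to 1.03, group alone, Benjamini-Hochberg over 14205 genes, threshold 0.05). Members under that level came from the same fit over the 29836 genes with any count. Standard errors are the absolute log2 fold change over the square root of F. GC content came from GENCODE release 29 (14115 of the tested genes). Offsets from splines on GC and log length removed each library's trend. limma 3.58.1, DESeq2 1.42.0 and R 4.3.3 were also used. A count of 0 allows up to 3 counts. No column repeated another.

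Named were all members, TNFAIP8 and up to 3 called genes with the smallest adjusted p per pathway list. SPEN, CYP24A1, HNF4A and some markers were named after their values were seen. The members and lists were chosen with earlier results of these data known. A few items are not reported here.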

Additional observations from a re-analysis of the deposited data

How the results depend on the processing

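The 33 members with counts were refitted under up to 17 alternatives, which gave 539 values with an adjusted p, and 5 of low members had none in DESeq2. Of the 539, 502 kept their side of the threshold (and, where either fit passed, their direction), 29 lost a call and 8 gained one. No called member changed direction. The calls lost belonged to RARG, PPARG, RORA, NR2C2 and NR2F6, and those gained to NR2F2 and NR6A1. Members higher numbered 6 to 8 and members lower 8 to 12 over all alternatives. Without TIPE replicate 3, which stood apart, 7 rose and 11 fell. Over all genes, limma on log2(FPKM + 1) and log2(FPKM + 0.1) called 1912 and 1902 genes higher, against 2967 in edgeR. limma used the FPKM values without TMM factors. The isotype shares do not depend on scaling between libraries, but the GC and length trend was not removed from them. GC content differed within families, at 71.1% for NR2F6, 59.0% for NR2F1 and 49.8% for NR2F2. It was 59.0% for PPARD and 44.0% for PPARG.

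Replicate numbers did not pair the libraries: deviations of same-numbered libraries correlated at -0.0057, -0.020 and -0.051, and 0 of 6 libraries correlated best with its own number. With a replicate block, 7 members rose and 9 fell, RARG and PPARG losing their calls (adjusted p = 0.0516 and 0.0568). With the block and the GC and length trend removed, 6 rose and 8 fell. Depth limits the members with few or no counts, among them all 4 steroid receptors. RORA and PPARA also lay under the filter, but with at least 50 counts in every library. Of the 25 tested members, 11 overlap another tested gene, whose reads may not be told apart.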

Other observations

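The surroundings of SRARP were read for genes within 100 kb, a window chosen after the rise of SRARP was known. Of 13 other genes there, 3 were tested, 5 had 7 or fewer counts in every library and 5 had none. SPEN (chromosome 1, 15836095 to 15940456), which encodes a large corepressor known to bind nuclear receptors and the Notch factor RBPJ, lies upstream of SRARP. It fell to 9.99 ± 0.852 FPKM in TIPE libraries, against 15.1 ± 0.268 FPKM in vector libraries (SD, n = 3 each, log2 fold change -0.52, edgeR adjusted p = 1.41e-06, 5.39e-15 to 0.00109 over the alternatives). ZBTB17 and FAM131C had log2 fold changes of 0.05 and -0.11 and did not pass (adjusted p = 0.670 and 0.435), while FAM131C passed as lower in the GC-adjusted fit (-0.36, adjusted p = 0.00663).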
